A study of Mus musculus with 6 samples.

Results

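The mouse zinc finger genes numbered Zfp700 to Zfp999 were examined in sorted hematopoietic stem cells (HSCs), the bone marrow cells that renew the blood. Members were taken by name: transcript clusters whose platform annotation gives a single gene symbol, made of Zfp and exactly 3 digits of which the first is 7, 8 or 9. On this whole-transcript array, probes that belong to the same gene or transcript are read together as 1 transcript cluster. The rule found 93 genes, each with 1 cluster, among 30145 genes named in this way and 65956 clusters on the array. Of these, 83 passed a limit on mean level and were tested, and 10 were too dim. The numbers are a naming order and do not mark a family by descent or function. Symbols in this range that the annotation gives only beside another symbol, Zfp706 and Zfp708 among them, were not analysed here. Another 11 tested genes carry a RefSeq symbol in this range but an older platform name, and stand by the rule among the other coding genes.

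Cdk19 knockout (KO) HSCs came from CDK19-/- mice and the HSCs they were set against from wild-type mice, with 3 arrays for each genotype and all mice aged 6 to 8 weeks. CDK19 is a kinase that sits in Mediator, the complex that passes signals from transcription factors to RNA polymerase II. Marrow was flushed from tibia, femur and ilium, depleted of lineage-positive cells, stained for HSC markers and sorted, per the labels' protocols. Arrays are labelled as biological replicates. The animals per array, the sex and strain of the mice, the gate markers and the deleted part of Cdk19 are not stated, so the p-values measure only the spread between these arrays.

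Zinc finger proteins of the C2H2 type bind DNA through repeated small domains folded around zinc. Many of the mouse Zfp genes encode KRAB zinc finger proteins, in which a second domain recruits the co-repressor TRIM28. TRIM28 in turn brings the histone H3 lysine 9 methyltransferase SETDB1, HP1 proteins and histone deacetylases, and the best known targets are transposons and endogenous retroviruses. The genes arose by duplication and many still lie side by side, so that near-identical copies can share array probes. Values of such copies are therefore less certain. Which members carry a KRAB domain was not analysed here.

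All values are the deposited ones, taken as log2, and every difference is KO minus wild type. In the KO HSCs, 16 of the 83 genes tested (19.3%) fell and 2 (2.41%) rose (limma, Benjamini-Hochberg adjusted p under 0.05 over all clusters tested). Among all 39591 clusters tested, 4.83% were called lower and 2.96% higher by the same rule. Among 12681 other protein-coding genes, which include other Zfp genes, the shares were 5.83% and 4.71%. Weighted to the same spread of mean levels as the zinc finger genes, over 10 bins, the other coding genes had 5.75% lower and 3.47% higher. The difference was below 0 in 71 of the 83 (85.5%), against 57.2% of the weighted coding genes. Every KO array lay below every wild-type array in 42 of the 83 (50.6%), and every KO array above in 4 (4.82%). Among all clusters these shares were 14.9% and 11.6%, and among the weighted coding genes 25.8% and 13.2%. The genes share related sequences, were measured on the same 6 arrays and are not independent of each other. The number that fell was 11, 14 and 10 without KO arrays 1, 2 and 3, and 9, 11 and 7 without wild-type arrays 1, 2 and 3, while 1.93% to 3.81% of all clusters were called lower. The number that rose was 1 in these fits, or 2 without KO array 2.

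The changes were small for most members. The median difference was -0.15 with quartiles of -0.33 and -0.05, over a range from -0.91 to 0.80, against a median of -0.03 in the weighted coding genes. The mean value over the 83 genes was 6.45, 6.44 and 6.42 in KO arrays 1 to 3, against 6.64, 6.62 and 6.65 in wild-type arrays 1 to 3. The arrays of the 2 genotypes did not overlap in this mean. For the other coding genes the mean was 7.21, 7.18 and 7.22 in KO arrays, against 7.21, 7.21 and 7.21 in wild-type arrays, and the genotypes overlapped. Sorted cells were measured in bulk, so fewer cells of a type and less RNA per cell cannot be told apart.

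**Figure D1:**
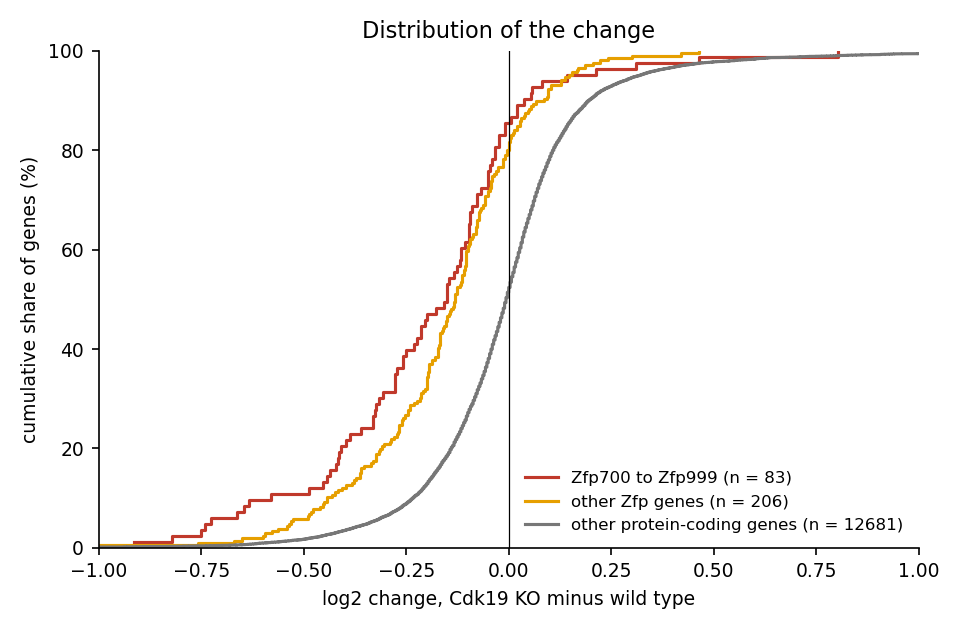
Cumulative share of genes (percent, vertical) by log2 change, KO minus wild type (horizontal, shown from -1 to 1). The red line is the 83 Zfp700 to Zfp999 genes, the orange line 206 other Zfp genes and the grey line 12681 other protein-coding genes, which include 205 of the orange set. Changes below 0 make up 85.5% of the red set, 80.1% of the orange set and 51.5% of the grey set.

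Zfp genes with numbers outside this range were also mostly lower in KO HSCs. Of 206 such genes tested, 28 (13.6%) fell and 3 (1.46%) rose in KO HSCs, 165 (80.1%) were below 0, and the median difference was -0.13. KO arrays lay below all wild-type arrays in 101 of them (49%). Among all clusters tested 4.83% were lower, 2.96% higher, 48.4% below 0 and 14.9% had all KO arrays below. Among coding genes weighted to the level of Zfp700 to Zfp999, 5.75% were lower, 57.2% below 0 and 25.8% had all KO arrays below. The number of these other Zfp genes that fell was 17, 15 and 18 without KO arrays 1, 2 and 3, and 15, 12 and 10 without wild-type arrays 1, 2 and 3. Of the 11 genes that only RefSeq names within Zfp700 to Zfp999, 3 were lower in KO HSCs, all 11 were below 0 and the median difference was -0.24. The difference between these counts and those of Zfp700 to Zfp999 was not tested.

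How many of the genes passed moved with their level. Other coding genes were ordered by mean level into 10 equal bins. Bin 4, from 5.36 to 6.12, held 26 members with 4 lower, against 3.86% of other coding genes there. Bin 6 held 17 members with 5 lower, against 9.23%, and bin 9 held 4 members with 3 lower, against 9.62%. In bin 5, 1 of 10 members was lower, against 6.78%. Bin 8 held 6 members, 3 lower and 2 higher, against 9.71% lower. Bins 7 and 10 held 4 members and 1 member with no call, against 8.98% and 8.05%. The 15 members in bins 1 to 3 gave 0 calls by limma, with 2 at an unadjusted p under 0.05, and 0.236%, 0.395% and 1.42% of other coding genes in these bins were lower, so the lack of calls there is near the background.

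**Figure D2:**
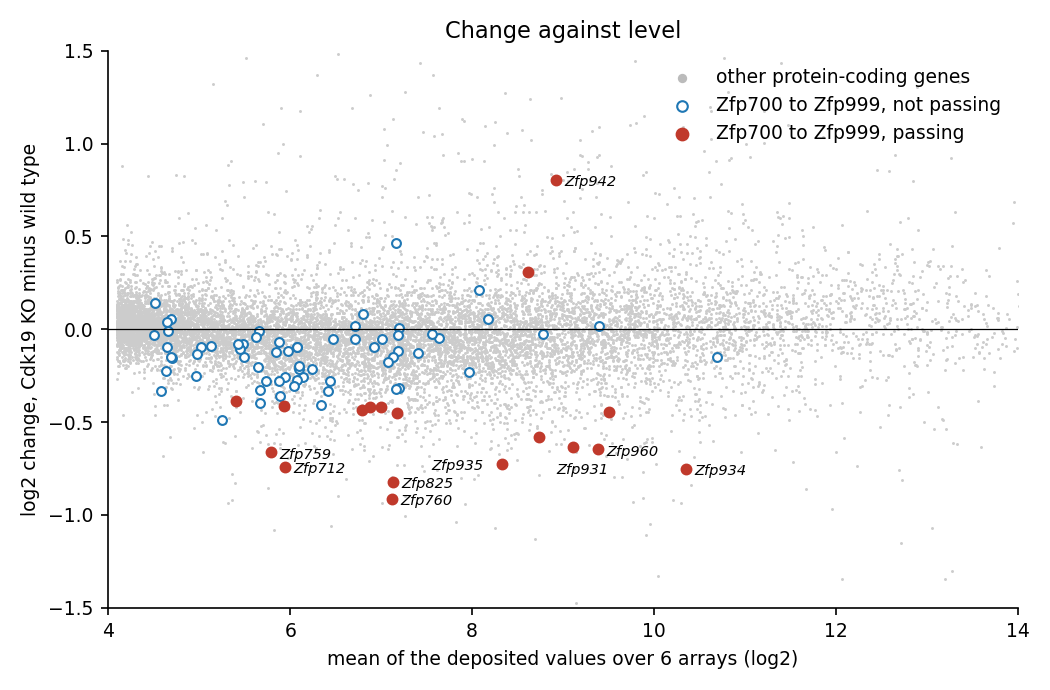
Log2 change, KO minus wild type (vertical), against the mean deposited value over the 6 arrays (horizontal, log2). Filled red points are the 18 Zfp700 to Zfp999 genes that passed the test, open blue points the 65 that did not, and grey points other protein-coding genes, of which 187 lie outside the axes. Most blue points sit just below 0, and the 2 filled points above 0 are Zfp942 and Zfp868.

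The genes on chromosome 13 had the lowest differences as a group. All 7 tested there lay lower in every KO array than in every wild-type array, 6 passed the test and the median was -0.73. Among all clusters tested 14.9% had all KO arrays below and 4.83% were called lower. The 20 other Zfp genes tested on chromosome 13 had 4 lower, 1 higher and a median of -0.28. The 475 other coding genes tested there had 28 lower (5.89%) and a median of -0.02. Without chromosome 13, 10 of 76 members (13.2%) fell, 2 rose, and the median was -0.14. Chromosome 13 was singled out after its values were seen.

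Zfp825, a zinc finger gene of chromosome 13, had values of 6.70, 6.69 and 6.78 in KO HSCs, against 7.51, 7.52 and 7.60 in wild-type HSCs. The arrays within a genotype lay close together and the groups were far apart, 1.77-fold lower in KO (log2 change -0.82, SE 0.06, adjusted p = 0.00118 by limma). Zfp934 and Zfp935 lie next to each other with no coding gene between them in the RefSeq order, and both fell. Zfp934 had 10.03, 9.98 and 9.93 in KO HSCs, against 10.71, 10.69 and 10.79 in wild-type HSCs (log2 change -0.75, SE 0.06, limma adjusted p = 0.00116). Zfp935 had 7.87, 8.08 and 7.95 in KO HSCs, against 8.67, 8.63 and 8.78 in wild-type HSCs (log2 change -0.73, SE 0.08, limma adjusted p = 0.00367). These neighbours thus differed by nearly the same amount, 1.68-fold and 1.65-fold lower, although probes shared between copies could give them part of their values in common, which was not tested.

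Further along chromosome 13, Zfp712 and Zfp759 form a pair and Zfp748 and Zfp738 another. RefSeq lists them within a stretch of zinc finger genes that includes Rsl1, a repressor of male-specific genes in mouse liver. Zfp712 had 5.60, 5.67 and 5.43 in KO HSCs, against 6.39, 6.23 and 6.30 in wild-type HSCs (log2 change -0.74, SE 0.09, limma adjusted p = 0.00491). Zfp759 had 5.34, 5.67 and 5.37 in KO HSCs, against 6.22, 5.87 and 6.28 in wild-type HSCs (log2 change -0.66, SE 0.14, limma adjusted p = 0.0371). KO array 2 and wild-type array 2 came within 0.2 of each other for this gene, and its call was lost without KO array 1 (adjusted p = 0.106), KO array 3 (0.112), wild-type array 1 (0.116) or wild-type array 3 (0.127). Zfp738 had 6.97, 6.96 and 6.92 in KO HSCs, against 7.48, 7.33 and 7.40 in wild-type HSCs (log2 change -0.45, SE 0.06, limma adjusted p = 0.00969). Without wild-type array 3 its adjusted p was 0.0507. Zfp748, at -0.32, did not overlap between genotypes and did not pass (limma adjusted p = 0.133).

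**Figure D3:**
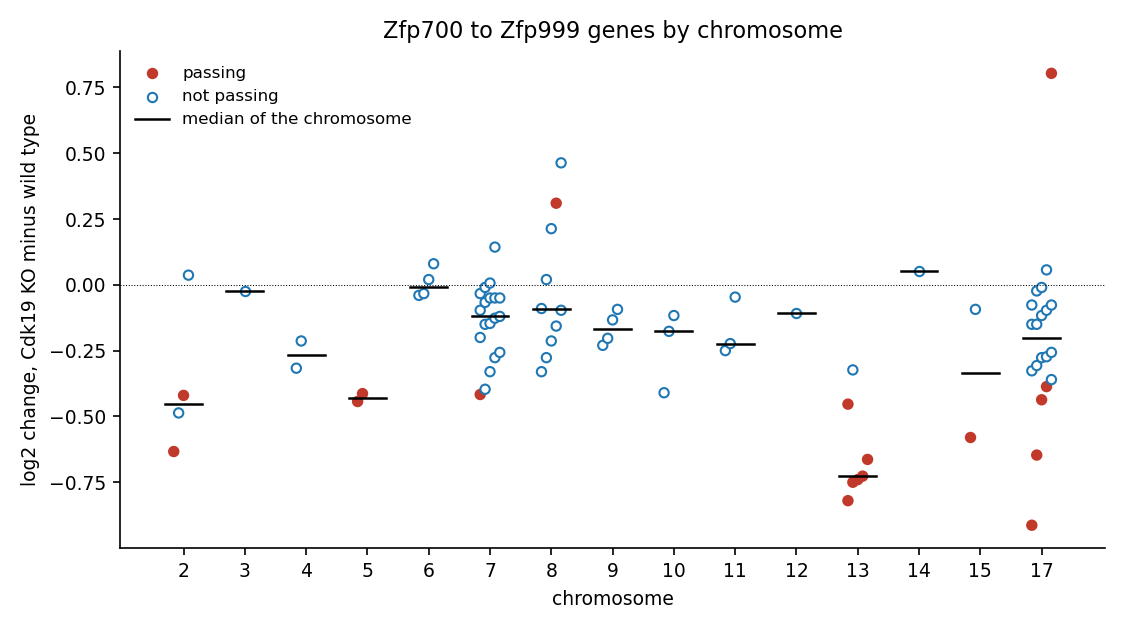
Log2 change, KO minus wild type (vertical), of each tested Zfp700 to Zfp999 gene by chromosome (horizontal). Filled red points passed the test, open blue points did not, and black lines are medians. The 7 points of chromosome 13 lie between -0.82 and -0.32, while chromosome 17 runs from -0.91 to 0.80.

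Zfp712, Zfp759 and Zfp738 share a block of bases just before their transcription starts. The promoter windows, from RefSeq on build GRCm38.p6 and reaching from 250 bases before to 50 bases after the start, are shown because these 3 genes fell and lie in the same stretch of the chromosome. Capitals mark the block TTGTGGGAANTGTAGTC, in which N is any base.
Zfp712 (chr13:67061121-67061420, minus strand): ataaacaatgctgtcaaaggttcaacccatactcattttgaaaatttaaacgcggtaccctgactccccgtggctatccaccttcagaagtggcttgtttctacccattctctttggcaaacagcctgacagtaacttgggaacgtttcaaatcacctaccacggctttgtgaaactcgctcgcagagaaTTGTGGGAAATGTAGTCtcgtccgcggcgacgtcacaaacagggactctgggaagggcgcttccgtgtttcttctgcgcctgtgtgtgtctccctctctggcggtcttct
Zfp759 (chr13:67127978-67128277, plus strand): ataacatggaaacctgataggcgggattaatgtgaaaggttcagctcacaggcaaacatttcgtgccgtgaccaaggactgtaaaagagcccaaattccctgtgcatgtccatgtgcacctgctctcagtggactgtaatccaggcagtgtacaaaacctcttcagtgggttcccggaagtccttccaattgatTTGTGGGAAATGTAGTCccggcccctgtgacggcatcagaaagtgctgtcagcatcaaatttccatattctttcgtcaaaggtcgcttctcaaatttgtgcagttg
Zfp738 (chr13:67683463-67683762, minus strand): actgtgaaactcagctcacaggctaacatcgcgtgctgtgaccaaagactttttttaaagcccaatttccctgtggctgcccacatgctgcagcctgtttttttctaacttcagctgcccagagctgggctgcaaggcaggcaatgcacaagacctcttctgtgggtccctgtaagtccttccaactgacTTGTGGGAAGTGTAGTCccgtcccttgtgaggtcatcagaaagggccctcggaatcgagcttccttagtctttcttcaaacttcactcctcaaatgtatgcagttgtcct
It is the longest ungapped stretch shared by the 3 windows with at most 1 varying base. The block starts at position 191, 195 and 191 of the windows of Zfp712, Zfp759 and Zfp738, counted from 1 at the 5′ end. Global alignment gave 72.3% identity between the windows of Zfp759 and Zfp738, 59.3% for Zfp712 and Zfp738 and 53.7% for Zfp712 and Zfp759. The median over all 3240 pairs of members with a promoter window was 52.3%, and the 95th percentile was 56.3%. Of the 81 members with a window, 4 hold the block, and the other is Zfp748. All 4 are on chromosome 13. The block occurs in 7 of 182 other Zfp windows (3.85%) and in 19 of 17492 windows of all protein-coding genes (0.109%). It was taken from these windows, so its presence in these 3 genes is no finding, and like the other motifs here it was searched on both strands, with overlap between motifs allowed.

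A second set of falling genes on 3 chromosomes has related promoter windows. Zfp935 on chromosome 13, Zfp931 on chromosome 2 and Zfp932 on chromosome 5 all carry CCAATCA, a form of the CCAAT box that the factor NF-Y is known to bind, marked here in capitals.
Zfp935 (chr13:62466763-62467062, minus strand): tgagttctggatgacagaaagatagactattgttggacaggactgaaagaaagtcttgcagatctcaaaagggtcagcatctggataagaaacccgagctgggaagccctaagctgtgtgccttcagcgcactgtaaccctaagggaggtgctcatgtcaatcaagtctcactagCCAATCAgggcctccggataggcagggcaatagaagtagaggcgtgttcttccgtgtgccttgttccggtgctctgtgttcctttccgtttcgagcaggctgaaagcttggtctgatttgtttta
Zfp931 (chr2:178078376-178078675, minus strand): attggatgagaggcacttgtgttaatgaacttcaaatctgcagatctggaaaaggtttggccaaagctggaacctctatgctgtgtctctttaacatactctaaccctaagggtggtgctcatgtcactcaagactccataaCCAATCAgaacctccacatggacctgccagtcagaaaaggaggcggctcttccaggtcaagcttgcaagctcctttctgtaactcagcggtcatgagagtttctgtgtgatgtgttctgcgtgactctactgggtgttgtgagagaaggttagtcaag
Zfp932 (chr5:109996260-109996559, plus strand): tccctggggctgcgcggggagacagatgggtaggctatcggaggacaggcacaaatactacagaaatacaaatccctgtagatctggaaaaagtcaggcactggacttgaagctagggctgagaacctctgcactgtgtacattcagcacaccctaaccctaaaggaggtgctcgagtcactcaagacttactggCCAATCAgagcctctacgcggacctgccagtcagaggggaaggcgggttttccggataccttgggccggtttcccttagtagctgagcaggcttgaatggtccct
CCAATCA starts at positions 176, 143 and 196 of these windows. Identity was 66% between Zfp935 and Zfp932, 63% between Zfp935 and Zfp931 and 60% between Zfp931 and Zfp932, all above that limit of 56.3%. The pair of members with the highest identity, Zfp758 and Zfp943 at 97.3%, did not pass the test and had differences of -0.10 and -0.01. CCAATCA was present in 7 of the 13 falling members with a window (53.8%), in 1 of the 2 rising members and in 18 of the 66 remaining members (27.3%). It was in 27 of 182 other Zfp windows (14.8%) and in 1837 of 17492 of all coding genes (10.5%). Among tested members, the 23 with CCAATCA had a median difference of -0.33, with 7 lower and 1 higher, and the 50 without it had a median of -0.12, with 6 lower and 1 higher. The motif was chosen after the windows of changed genes were read, so these shares are a description. Among other motifs searched, the ETS motif CCGGAAG was in 4 of 13 falling (30.8%) and 6 of 66 remaining members (9.09%). The E-box CACGTG was in 0 and 12, TATAAA in 1 and 5, and the CRE TGACGTCA in 0 and 0. In all coding genes the shares of these motifs were 12.9%, 8.91%, 14.8% and 2.54%. In the 182 other Zfp windows they were 26.9%, 5.49%, 9.34% and 4.4%, so the ETS share there was near that of the falling members. Members share promoter sequence by descent and are not independent.

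Zfp931 had 8.71, 8.88 and 8.80 in KO HSCs, against 9.43, 9.45 and 9.41 in wild-type HSCs. The genotypes were more than 0.5 apart on every array, 1.55-fold lower in KO (log2 change -0.63, SE 0.06, limma adjusted p = 0.00289). Zfp932, whose protein represses endogenous retroviruses in mouse embryonic stem cells, had 9.19, 9.31 and 9.35 in KO HSCs, against 9.82, 9.63 and 9.73 in wild-type HSCs. Its groups did not overlap (log2 change -0.44, SE 0.07, limma adjusted p = 0.0173), but the adjusted p was 0.0623 without wild-type array 1 and 0.0763 without wild-type array 3. Zfp951, the other member tested on chromosome 5, had 5.69, 5.82 and 5.66 in KO HSCs, against 6.04, 6.15 and 6.22 in wild-type HSCs (log2 change -0.41, SE 0.08, limma adjusted p = 0.0264). That call was lost without KO array 1 (0.0789), KO array 3 (0.0765), wild-type array 2 (0.0971) or wild-type array 3 (0.102).

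Chromosome 17 held both the largest fall and the largest rise, in 1 run of neighbours. Of 20 members tested there, 4 fell, 1 rose, 18 were below 0 and the median was -0.20. The 20 other Zfp genes tested on that chromosome had 4 lower and the same median of -0.20. The 614 other coding genes tested there had 42 lower (6.84%) and a median of -0.01. A run of 13 members lies there within 19 consecutive coding genes. In it 2 fell, 1 rose and 12 were below 0. Among all clusters tested 4.83% were lower, 2.96% higher and 48.4% below 0.

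Zfp760 had 6.60, 6.61 and 6.76 in KO HSCs, against 7.43, 7.65 and 7.63 in wild-type HSCs. No KO array came near a wild-type array, and the gene was 1.88-fold lower in KO (log2 change -0.91, SE 0.09, limma adjusted p = 0.00239). Zfp942, with 3 coding genes between it and Zfp760, went the other way. It had 9.50, 9.30 and 9.17 in KO HSCs, against 8.44, 8.52 and 8.60 in wild-type HSCs. All KO arrays were above all wild-type arrays, 1.75-fold higher (log2 change 0.80, SE 0.10, limma adjusted p = 0.00557). The promoter windows of this pair are shown because the genes are close neighbours that changed in opposite directions. Capitals mark the GC box GGGCGG, which SP1 is known to bind.
Zfp760 (chr17:21707491-21707790, plus strand): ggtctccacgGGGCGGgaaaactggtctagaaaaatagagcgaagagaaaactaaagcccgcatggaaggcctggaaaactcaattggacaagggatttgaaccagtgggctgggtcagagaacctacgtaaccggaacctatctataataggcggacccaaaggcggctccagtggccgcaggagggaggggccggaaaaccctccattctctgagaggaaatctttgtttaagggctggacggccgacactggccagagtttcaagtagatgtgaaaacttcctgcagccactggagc
Zfp942 (chr17:21962415-21962714, minus strand): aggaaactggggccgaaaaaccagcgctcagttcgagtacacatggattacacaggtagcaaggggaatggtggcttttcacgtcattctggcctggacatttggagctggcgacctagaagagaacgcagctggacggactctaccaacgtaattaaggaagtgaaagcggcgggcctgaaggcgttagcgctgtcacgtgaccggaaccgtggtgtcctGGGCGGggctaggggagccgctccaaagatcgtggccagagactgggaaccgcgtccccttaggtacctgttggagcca
The windows were 53.3% identical, near the median of all pairs of members. GGGCGG was found on either strand in 4 of 13 falling members (30.8%), in both rising members, in 28 of 66 remaining members (42.4%) and in 49.2% of all coding genes. In other Zfp windows the share with GGGCGG was 51.1%. The windows of falling members had a median of 50% G and C and 8 CpG pairs, against 53% and 11 in the remaining members and 56.3% and 13 in all coding genes. Other Zfp windows had medians of 56.3% and 16.

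The other falling genes of chromosome 17 were Zfp960, Zfp945 and Zfp952. Zfp960 had 9.16, 9.02 and 9.0 in KO HSCs, against 9.78, 9.60 and 9.74 in wild-type HSCs (log2 change -0.65, SE 0.08, limma adjusted p = 0.00504), with a gap between the genotypes in all arrays. Zfp945, in the same run as Zfp760, had 6.76, 6.49 and 6.47 in KO HSCs, against 6.93, 7.09 and 7.01 in wild-type HSCs (log2 change -0.44, SE 0.10, limma adjusted p = 0.0448). KO array 1 was close to the wild-type values. The call of Zfp945 was kept only without KO array 1 (0.0248) and was lost on leaving out any other array, with adjusted p from 0.0879 to 0.149. Zfp952 had 5.13, 5.22 and 5.29 in KO HSCs, against 5.57, 5.69 and 5.54 in wild-type HSCs (log2 change -0.39, SE 0.08, limma adjusted p = 0.0279), and kept its call only without KO array 3 (0.045), with 0.0764 to 0.1 without any other array.

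**Figure D4:**
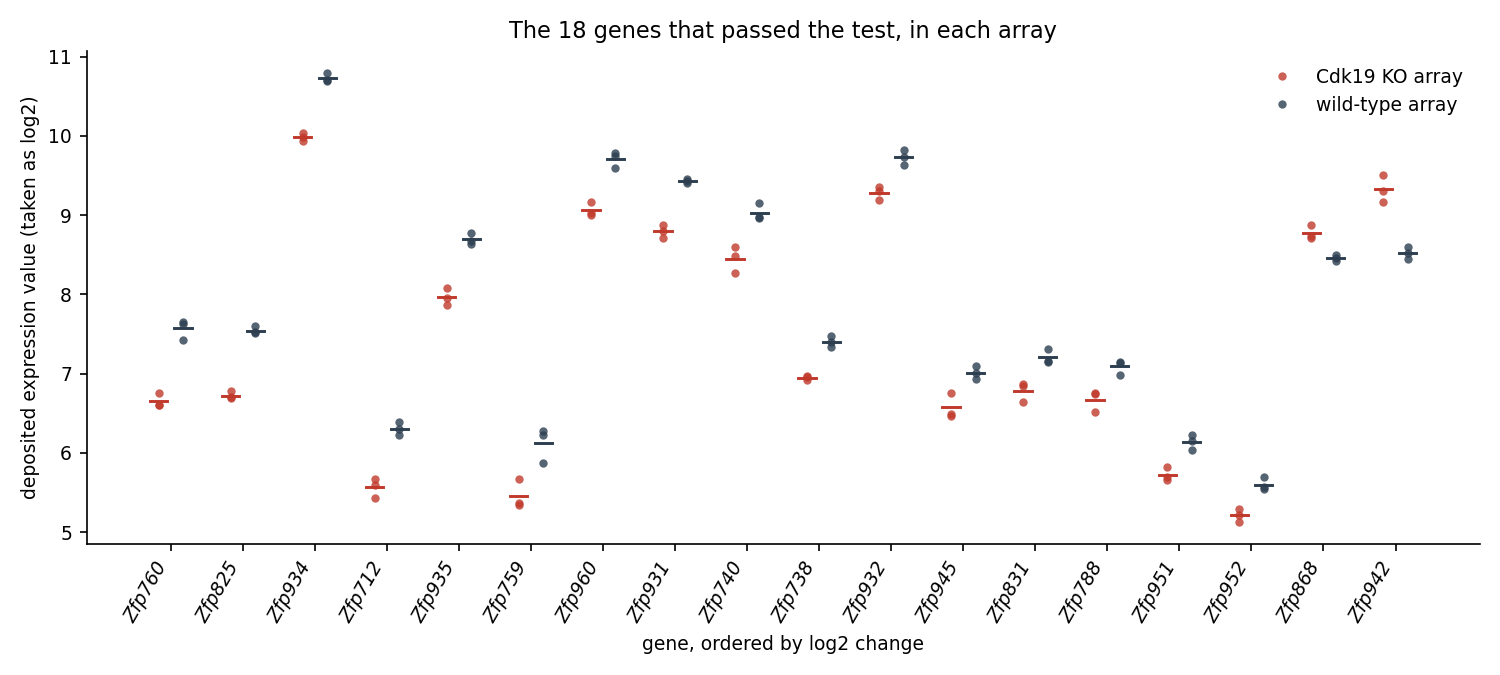
Deposited values (log2, vertical) of the 18 Zfp700 to Zfp999 genes that passed the test, ordered by log2 change. Red points are the 3 KO arrays and dark points the 3 wild-type arrays of each gene, with a line at each mean. The groups do not overlap in any of the 18 genes, with Zfp760 at the left and Zfp942 at the right end.

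The remaining falling genes lie on chromosomes 15, 2 and 7. Zfp740 had 8.60, 8.27 and 8.48 in KO HSCs, against 8.98, 8.96 and 9.15 in wild-type HSCs (log2 change -0.58, SE 0.10, limma adjusted p = 0.02). Its adjusted p was 0.0588 without KO array 3 and 0.0603, 0.0618 and 0.0799 without wild-type arrays 1, 2 and 3. Zfp831 had 6.87, 6.64 and 6.85 in KO HSCs, against 7.16, 7.15 and 7.31 in wild-type HSCs (log2 change -0.42, SE 0.09, limma adjusted p = 0.0367). Zfp788 had 6.76, 6.52 and 6.74 in KO HSCs, against 6.98, 7.15 and 7.14 in wild-type HSCs (log2 change -0.42, SE 0.09, limma adjusted p = 0.042). Zfp831 and Zfp788 lost their calls on leaving out any of the 6 arrays, with adjusted p from 0.0616 to 0.131 and from 0.0664 to 0.149, so they rest on the full set of arrays.

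Zfp868 on chromosome 8 was the other member that rose. It had 8.73, 8.71 and 8.87 in KO HSCs, against 8.50, 8.46 and 8.42 in wild-type HSCs. The groups were apart but close (log2 change 0.31, SE 0.07, limma adjusted p = 0.0397), and leaving out any array ended the call, with adjusted p from 0.062 to 0.152. It lies in a run of 4 members, in the order Zfp930, Zfp868, Zfp964 and Zfp869. Zfp869 had a difference of 0.21 and Zfp930 of -0.21, neither passed, and Zfp964 was too dim to be tested. Of 18 called members, Zfp712, Zfp760, Zfp825, Zfp931, Zfp934, Zfp935, Zfp942 and Zfp960 were called with each array left out in turn.

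Of the members with a well studied role, 8 were tested, 1 (Zfp932, above) was lower and 0 were higher by limma. At an unadjusted p under 0.05 the counts were 2 and 1. Among all clusters 4.83% were lower and 2.96% higher, or 12.3% and 9.31% unadjusted, so few calls are usual for any genes. Zfp809, whose protein silences murine leukemia virus type retroviruses in mouse embryonic cells, had 7.79, 7.78 and 7.97 in KO HSCs, against 8.17, 8.04 and 8.02 in wild-type HSCs (log2 change -0.23, SE 0.08, limma adjusted p = 0.157). Zfp703, whose human homolog is amplified in luminal breast cancer, had 7.61, 7.18 and 7.40 in KO HSCs, against 6.84, 6.88 and 7.08 in wild-type HSCs. Its groups did not overlap and its KO arrays spread widely (log2 change 0.46, SE 0.12, limma adjusted p = 0.0794), and without KO array 2 the adjusted p was 0.0499. Zfp746, which encodes PARIS, a substrate of parkin, differed by -0.03 (limma adjusted p = 0.833). Zfp827, whose human homolog recruits the NuRD complex to telomeres, differed by -0.10 (adjusted p = 0.517), and Zfp830, a splicing-associated gene, by -0.05 (adjusted p = 0.808). Zfp710 and Zfp768 differed by -0.13 and -0.05 and did not pass either. Zfp711, the X-linked partner of the demethylase PHF8, and Zfp750, whose human homolog drives epidermal differentiation, were below the level limit with mean values of 3.85 and 3.11.

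The 65 tested members that were not called ran from -0.49 to 0.46. Of these, 55 were below 0, 26 had all KO arrays below all wild-type arrays and 2 had all KO arrays above. Over all clusters tested, called or not, 48.4% were below 0, 14.9% had all KO arrays below and 11.6% all above. Over the weighted coding genes, called or not, these shares were 57.2%, 25.8% and 13.2%. Shares among only those not called were not computed. Zfp871 and Zfp800 were among the 6 members with the highest array values, which do not rank transcripts between probes. Zfp871 had 10.64, 10.54 and 10.68 in KO HSCs, against 10.74, 10.81 and 10.76 in wild-type HSCs (log2 change -0.15, SE 0.06, limma adjusted p = 0.199). Zfp800 had 9.52, 9.43 and 9.28 in KO HSCs, against 9.35, 9.40 and 9.42 in wild-type HSCs, and the groups overlapped (limma adjusted p = 0.922). Just above the level limit of 4.09, Zfp784 differed by -0.03. Just below it, Zfp735 had 4.08, 4.18 and 4.15 in KO HSCs, against 3.89, 3.90 and 3.90 in wild-type HSCs, and was not tested. The other 9 members that were too dim were Zfp711, Zfp750, Zfp786, Zfp791, Zfp811, Zfp853, Zfp872, Zfp941 and Zfp964.

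Partners of KRAB zinc finger proteins were read from a list of 30 genes, of which 25 were named alone on the array and tested. In KO HSCs 6 fell and 0 rose (limma), with a list median of -0.06, and at an unadjusted p under 0.05 the counts were 8 and 2. Among all clusters 4.83% were lower and 2.96% higher, and at an unadjusted p under 0.05 the shares were 12.3% and 9.31%. These shares are not weighted to the level of the list. The 6 that fell had mean values of 8.6 to 12.7, which span bins 8, 9 and 10 of level. In these bins 9.71%, 9.62% and 8.05% of other coding genes were lower. Trim28, the shared co-repressor, had 13.14, 13.14 and 13.19 in KO HSCs, against 13.14, 13.18 and 13.16 in wild-type HSCs, and the groups overlapped (SE 0.04, limma adjusted p = 0.979). Atf7ip, which encodes a partner of SETDB1, had 12.36, 12.24 and 12.36 in KO HSCs, against 13.06, 13.10 and 13.07 in wild-type HSCs. This was the largest difference of the list and was called with each array left out (log2 change -0.76, SE 0.05, limma adjusted p = 0.000786). Setdb1 itself had 9.26, 9.20 and 9.24 in KO HSCs, against 9.49, 9.53 and 9.47 in wild-type HSCs (log2 change -0.26, SE 0.05, limma adjusted p = 0.0312), and lost its call on leaving out any array, with adjusted p from 0.0631 to 0.129.

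The others that fell were Dnmt3b, a de novo DNA methyltransferase, at -0.42 (limma adjusted p = 0.00972), Ehmt1, a histone H3 lysine 9 methyltransferase, at -0.35 (0.0187), Morc3, an ATPase of heterochromatin, at -0.37 (0.0264) and Smarcad1, a remodeller that binds TRIM28, at -0.29 (0.0205). Their groups did not overlap. Fewer partners were called whichever array was left out. The number of falling partners was 4, 2 and 3 without KO arrays 1, 2 and 3, and 3, 1 and 1 without wild-type arrays 1, 2 and 3. The share of all clusters called lower also dropped in these fits, from 4.83% to between 1.93% and 3.81%.

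**Figure D5:**
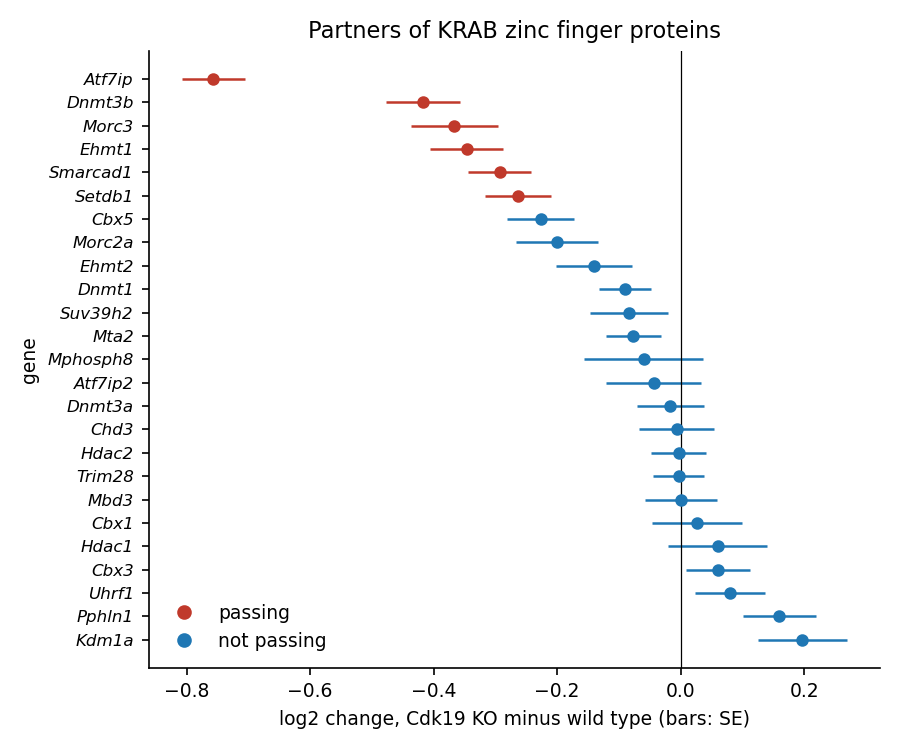
Log2 change, KO minus wild type (horizontal, bars are SE), of the 25 tested genes for partners of KRAB zinc finger proteins (vertical). Red points passed the test and blue points did not. Atf7ip at -0.76 stands apart, and Trim28 lies at 0.

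The targeted gene and markers of other cells were read on the same arrays. Cdk19 had 11.49, 11.42 and 11.51 in KO HSCs, against 12.49, 12.45 and 12.38 in wild-type HSCs (log2 change -0.97, SE 0.05, limma adjusted p = 0.000322). Transcript was still read in the KO arrays, and which probes lie in the deleted part is not given in the sources used here. Among all clusters tested 4.83% were lower and 2.96% higher by limma, shares that are not weighted to the level of the markers. Of 9 HSC markers tested, 3 were lower in KO, namely Kit, Hlf and Meis1. At an unadjusted p under 0.05, 4 of the 9 were lower and 1, Tek, was higher (log2 change 0.16), against 12.3% and 9.31% of all clusters. The list median was -0.13. The mean of all 9 was 7.92 to 7.95 in KO arrays, against 8.13 to 8.16 in wild-type arrays. Lymphoid-primed and B cell markers were lower for 5 of 7, with list means of 7.35 to 7.44 in KO arrays, against 8.09 to 8.13 in wild-type arrays. Megakaryocyte markers were higher for 3 of 5, with 7.26 to 7.31 in KO arrays, against 6.74 to 6.77 in wild-type arrays. Of 8 granulocyte markers 1 was higher, with 8.66 to 8.86 in KO arrays, against 8.57 to 8.65 in wild-type arrays, and of 4 erythroid markers only Car1 was lower (log2 change -1.04). The erythroid list means were 5.17 to 5.20 in KO arrays, against 5.38 to 5.51 in wild-type arrays, while the median difference of the list was -0.0033. Of 3 T and NK cell markers and 4 macrophage markers limma called 0, with 1 and 0 at an unadjusted p under 0.05, and Cd3e, Cd8a, Ncr1, C1qa and C1qb were below the level limit. The list means of the HSC, lymphoid, megakaryocyte, granulocyte and erythroid markers did not overlap between genotypes, and their part in the zinc finger changes was not tested.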

How the data were processed

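Expression was read from whole-transcript arrays of 3 Cdk19 KO and 3 wild-type HSC samples. The deposited log2 values were made by the authors, 1 per transcript cluster and array. The submitters' processing notes name MAS5, with no role. Background correction, summary, normalization, log base and detection calls are not stated by the labels or headers, and the values were taken as log2, on which every fold depends. They run from 2.04 to 19.93, with array medians of 4.40 to 4.48. Correlations between arrays, across clusters, were 0.997 to 0.998 within a genotype and 0.995 to 0.996 between genotypes. The number of arrays limits the precision.

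Clusters were named through the platform annotation: 30604 had 1 symbol, 2146 several and 33206 none. In 52 of the 93 member clusters the symbol is written more than once and was read as 1 symbol. The dimmest 40% of clusters by mean over the 6 arrays were left out (limit 4.09). A model with genotype alone was fitted over 39591 clusters with limma 3.58.1 in R 4.3.3, its variances moderated along an intensity trend. Tests were two-sided with Benjamini-Hochberg adjustment, and a cluster was called under 0.05. On data simulated for this comparison (39574 clusters) it recovered 82.8% of 93 shifts of 1 and 33% of 94 shifts of 0.5, with 5 false calls. Far fewer clusters were shifted there than the 1912 lower and 1172 higher called in the data. The adjustment was therefore stricter in the simulation, and these shares may be too low for the data.

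Tables, alignments and plots used Python 3.11.15, pandas 2.3.3, Biopython 1.88 (match 1, mismatch -1, gap opening -3, gap extension -0.5) and matplotlib 3.10.9. Promoter windows came from RefSeq, and 81 of 93 members matched. Members were placed in runs where neighbours were at most 10 coding genes apart in RefSeq. Named genes were every called member, the 6 members with the highest values, members with a well known role, called partners with Trim28 and Setdb1, Cdk19, and the members next to the level limit. The members and the gene lists were chosen with earlier results of these data known. No batch is recorded in the labels. Alternatives changed normalization, the level limit, the trend, a replicate block, the number of level bins and the arrays included.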

Additional observations from a re-analysis of the deposited data

How the results depend on the processing

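The count of Zfp700 to Zfp999 genes called lower was 12 to 18 under other scalings, level limits and without the trend, against 16, and the share of all clusters called lower ranged there from 2.35% to 8.48%. With arrays shifted to a common median, 1 member and 1 other Zfp gene were called higher and the median difference of members was -0.18. With no level limit these were 1, 1 and -0.13, and with the dimmest 60% left out the median was -0.20. Replicate numbers showed no sign of pairing the samples (correlations of deviations -0.14, -0.10 and 0.02 for numbers 1, 2 and 3). Unlike numbers had -0.13 to 0.21, and with 3 arrays per genotype this check cannot exclude pairing. With the replicate block, 8 members were lower and 1 higher, 10 other Zfp genes lower and 1 higher, and 1 KRAB partner lower. In that fit 2.74% of all clusters were called lower, against 4.83% without the block. The 9 member calls with the block were all among the 18. Leaving out each array in turn gave 7 to 14 members lower and 1 to 2 higher, 10 to 18 other Zfp genes lower and 0 to 1 higher, 1 to 4 partners lower, and member medians from -0.17 to -0.14. The chromosome 13 count was 4 to 6. The causes were not tested. With 20 level bins, weighted coding genes had 5.67% lower. Over the named genes and alternatives, 320 values kept direction and call, 88 kept direction and lost the call, 1 gained it and 11, of genes not called in either fit, changed sign near 0. These were Zfp746 (0.00) and Trim28 (0.02) with quantile normalization, Zfp800 (-0.01) with a common median, and, leaving out arrays, Zfp800 (-0.04 to 0.08), Trim28 (-0.02 to 0.01), Zfp768 (-0.12 to 0.01), Zfp830 (-0.10 to 0.01), Zfp784 (-0.08 to 0.00) and Zfp746 (-0.06 to 0.00). Averaging clusters of a gene changed nothing, since each member has 1, and the linear scale alternative was not run because the values are on a log scale. Depth per array cannot be read from these values.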
